A study of Mus musculus with 20 samples.

Results

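Apelin, its receptor and 7 other genes linked to vessel sprouting were read in endothelial cells of mouse mammary tumours grown in hosts with and without CD4 T cells. The 9 genes, Apln, Aplnr, Esm1, Cxcr4, Igfbp3, Unc5b, Adm, Plvap and Mcam, were taken by name from the 46983 gene IDs of each table, and all 9 had enough counts to be tested among 14875 genes. The 20 libraries are bulk RNA-seq of CD31-positive cells, enriched on microbeads and then sorted. The tumours were E0771, a mouse mammary carcinoma line; its cells were placed in the mammary fat pad and tumours were taken at 500 mm3.

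All hosts were C57BL/6J. By the submitters' labels, CD4 T cells are competent in 3 backgrounds, namely WT (wild type, 4 libraries), CD8KO (3 libraries) and Tie2Cre (3 libraries). In the other 3 they are deficient: CD4KO (3 libraries), TCRKO (3 libraries) and Tie2Cre;H2Ab fl/fl (4 libraries), written Tie2Cre_H2Abf below. Tie2Cre is a Cre recombinase driven by the Tie2 promoter, which is active in endothelial and in blood-forming cells, and Tie2Cre_H2Abf joins it to a floxed H2-Ab1 allele, a chain of an MHC class II molecule. The Tie2Cre hosts are thus the control of Tie2Cre_H2Abf, since both carry the Cre. No source used here gives an age or ties a library to an animal of its own. The p-values therefore cover the spread between these libraries alone, which may be technical. CD4 status is set by the background, with 3 backgrounds in each class. The fit of deficient against competent hosts takes libraries as replicates whatever their background. Its SE and p-values therefore do not treat backgrounds as the unit.

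A vessel sprout is led by a tip cell, which senses VEGF and guidance cues, and is followed by stalk cells that form the tube. Tip cells make apelin, a peptide ligand, while its receptor Aplnr sits mainly on neighbouring endothelial cells, so ligand and receptor can report different cells of the same vessel. Hypoxia and VEGF are known to raise several of these genes, among them Apln, Adm and Cxcr4.

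Total counts ran from 1543880 to 11478900 per library. The share of ribosomal and other abundant RNA spanned 17.2% (CD8KO_9752) to 86.9% (WT_9749), and the 9 genes together took 0.0393% (WT_9771) to 0.680% (CD8KO_9752). WT_9771 and Tie2Cre_9501 are called satellite-rich below because satellite-like genes held a large share of their reads, 47.1% and 19.7%, and values are given with and without them. A floor of 3 counts was worth 0.128 to 2.46 CPM (counts relative to the TMM-scaled library size), and such floors cover counting error only. All 12 endothelial markers had counts in every library, Pecam1 (CD31) at 435 to 1377 CPM. H2-Ab1 stood at 0.712 to 6.37 CPM in Tie2Cre_H2Abf and at 25.3 to 96.2 CPM in Tie2Cre. The labels CD4KO and TCRKO could not be checked this way. Cd4 stood at 4.22 to 15.7 CPM in CD4KO and 0.379 to 15.6 CPM in WT, and Cd3e reached at most 1.96 CPM in any library. Cd8a RNA went against the label CD8KO, at 39.0 to 69.8 CPM in the libraries so labelled and at most 2.94 CPM elsewhere. The labels do not say whether the knockout alleles leave transcript behind. CD8KO is used below as the submitters' label.

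**Figure D1:**
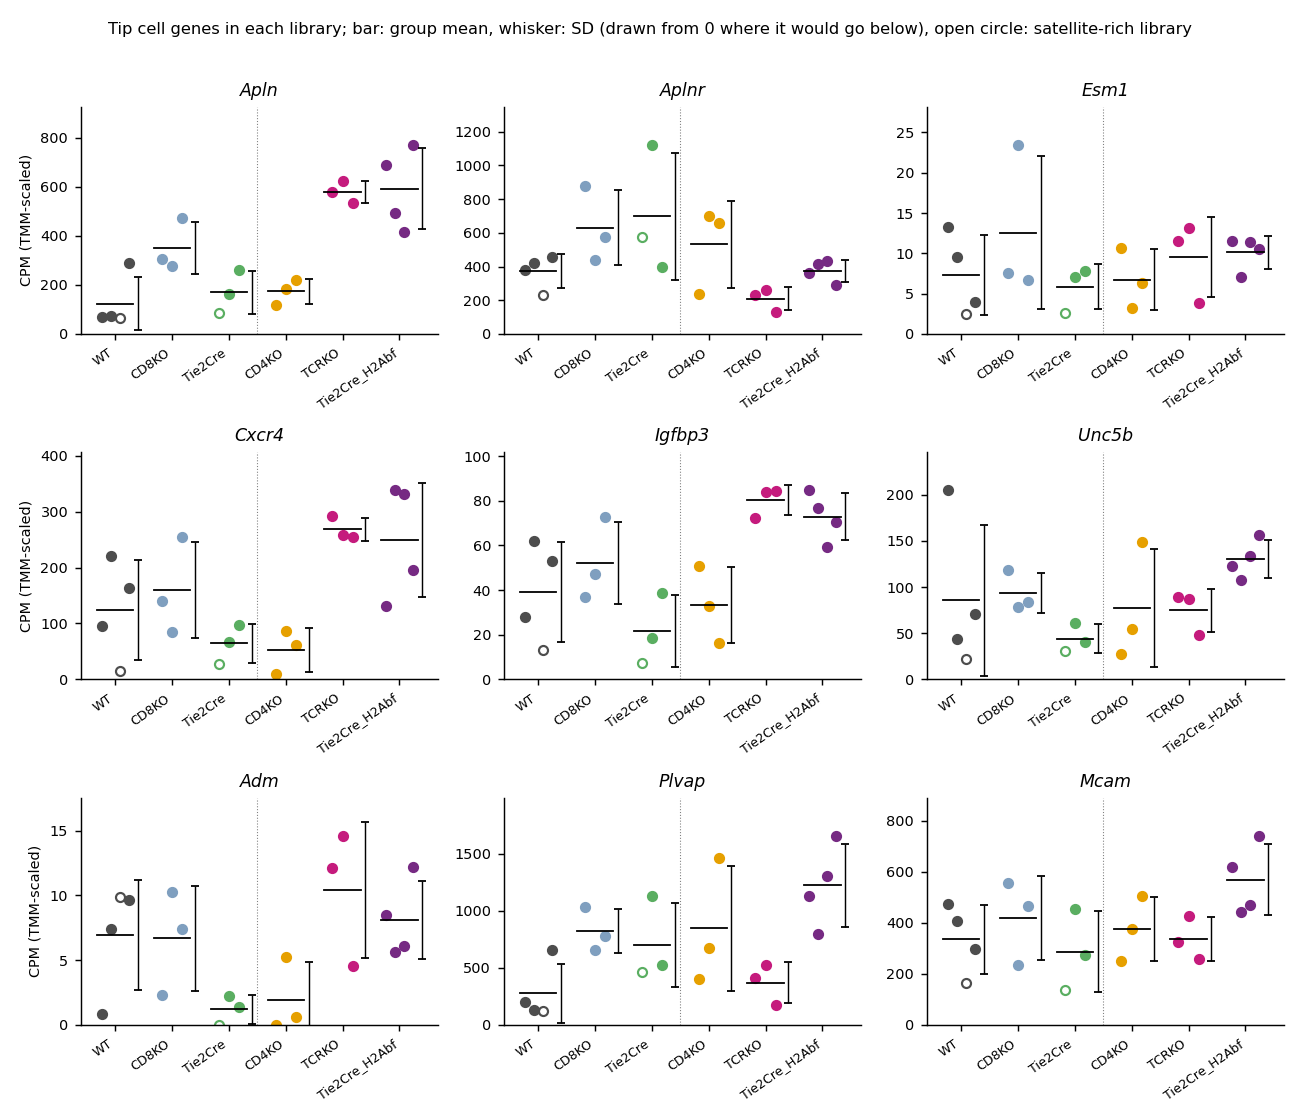
CPM (TMM-scaled, linear axes from 0) of the 9 genes in each of the 20 libraries by host background, with the group mean as a bar and its SD as a whisker; competent hosts are left of the dotted line and open circles are the satellite-rich libraries. Apln lies at 534 to 626 CPM in TCRKO and at 416 to 773 CPM in Tie2Cre_H2Abf, above all WT, Tie2Cre and CD4KO libraries.

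Apln stood highest in TCRKO and Tie2Cre_H2Abf hosts and lowest in WT, while its receptor Aplnr was lowest in TCRKO. Cxcr4 and Igfbp3 also had their highest group means in TCRKO and Tie2Cre_H2Abf. In bulk samples, fewer cells of a type and less RNA per cell cannot be told apart. With edgeR's quasi-likelihood test and Benjamini-Hochberg adjustment over 14875 genes, 0 of the 9 genes passed an adjusted p of 0.05 in any of 9 comparisons. Of all genes, 0.0269% passed in TCRKO against WT, 0.0202% in Tie2Cre_H2Abf against Tie2Cre, 0.0134% in TCRKO against CD4KO and 0.0605% in the test of any difference among the 6 backgrounds, and 0% in the other 5 comparisons. At an unadjusted p under 0.05, 7 of 9 genes stood out in Tie2Cre_H2Abf against Tie2Cre (8.54% of all genes did), 6 in TCRKO against CD4KO (6.21%), 3 in Tie2Cre against WT (6.85%) and 2 in CD8KO against WT (10.5%). The count was 2 for deficient against competent hosts (7.27%), 1 for TCRKO against WT (8.65%), 1 for CD4KO against WT (8.58%), 1 for TCRKO against CD8KO (4.72%) and 5 for any difference among the 6 backgrounds (9.34%). DESeq2 passed 1 gene (Apln) in TCRKO against WT and in Tie2Cre_H2Abf against Tie2Cre, and 3 (Apln, Aplnr, Cxcr4) in TCRKO against CD4KO. It passed 1 (Aplnr) in TCRKO against CD8KO and 4 (Apln, Aplnr, Cxcr4, Plvap) in the test of any difference. Of all genes it passed 1.16%, 0.363%, 0.699%, 0.282% and 1.75% in these 5 comparisons. limma-voom passed Apln in TCRKO against WT (0.0269% of all genes), Aplnr in TCRKO against CD8KO (0.242%), and 2 genes (Apln, Plvap) in the test of any difference (0.41%). The comparisons with WT share its 4 libraries, and those with TCRKO share its 3.

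The promoters of Apln, Cxcr4, Igfbp3 and Adm are shown, the first 3 because their levels separated TCRKO from WT and Tie2Cre_H2Abf from Tie2Cre below, a choice made after their values were seen, and Adm because it is a known target of hypoxia. RefSeq (GRCm38.p6) gave 250 bases before the start site for 7 of the 9 genes, all but Aplnr and Plvap. The letters ACGTG or GCGTG, the core of the hypoxia response element, were searched on both strands (CACGT or CACGC on the other strand) and stand in capitals. The sequences read 5′ to 3′ on the gene's strand, from chrX:48034854-48035103 (minus strand) for Apln, chr1:128592300-128592549 (minus) for Cxcr4, chr11:7213924-7214173 (minus) for Igfbp3 and chr7:110627407-110627656 (plus) for Adm.
Apln: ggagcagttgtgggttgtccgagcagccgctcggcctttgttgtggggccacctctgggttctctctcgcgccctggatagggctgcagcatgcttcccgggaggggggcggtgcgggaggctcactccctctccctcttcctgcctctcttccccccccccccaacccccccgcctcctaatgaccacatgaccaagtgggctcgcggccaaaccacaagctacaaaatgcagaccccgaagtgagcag
Cxcr4: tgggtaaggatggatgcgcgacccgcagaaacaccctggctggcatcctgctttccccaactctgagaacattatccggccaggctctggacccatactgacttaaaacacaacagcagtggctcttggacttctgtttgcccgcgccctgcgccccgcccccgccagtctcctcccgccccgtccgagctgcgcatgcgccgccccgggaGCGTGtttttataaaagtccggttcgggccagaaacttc
Igfbp3: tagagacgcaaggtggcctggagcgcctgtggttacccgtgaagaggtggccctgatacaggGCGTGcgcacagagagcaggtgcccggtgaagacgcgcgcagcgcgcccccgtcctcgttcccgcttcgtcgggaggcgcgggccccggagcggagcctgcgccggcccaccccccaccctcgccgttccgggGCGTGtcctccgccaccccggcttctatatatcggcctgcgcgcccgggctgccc
Adm: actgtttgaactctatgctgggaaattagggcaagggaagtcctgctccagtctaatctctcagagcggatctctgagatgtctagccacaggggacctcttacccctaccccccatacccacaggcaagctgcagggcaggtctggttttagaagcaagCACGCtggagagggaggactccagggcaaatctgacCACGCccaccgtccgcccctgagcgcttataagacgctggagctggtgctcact
Igfbp3 and Adm held 2 matches each, Cxcr4 held 1, which starts 39 bases before the start site, and Apln held 0. Of the 7 promoters, 5 held at least 1 match, against 38.6% of all 32851 promoters of this length, and none of the matches overlapped the E-box CACGTG. The 7 promoters also differed in GC content, from 44% (Esm1) to 73.6% (Mcam), where the median of all promoters was 52.4%. A match is a description of letters, not of binding, and a missing match says only that these letters are not in this window.

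Apln encodes apelin, a secreted peptide that binds Aplnr. The gene lies on chromosome X at 48025146 to 48034853 of GRCm38, on the minus strand. In WT it stood at 68.5, 73.5, 66.5 and 288 CPM in WT_9748, WT_9749, WT_9771 and WT_9772. Thus 3 of the 4 WT libraries lie close together and WT_9772 stands apart. The 3 CD8KO libraries read 306, 277 and 472 CPM, and the 3 Tie2Cre libraries 85.0, 163 and 262 CPM. CD4KO read 117, 183 and 220 CPM. The CD4KO values lie within the range of Tie2Cre and of WT, although these hosts are classed as deficient. TCRKO read 577, 626 and 534 CPM, a mean of 579 ± 45.8 (SD, n = 3). Tie2Cre_H2Abf read 688, 495, 416 and 773 CPM, a mean of 593 ± 166 (SD, n = 4), against 170.0 ± 88.5 (SD, n = 3) in Tie2Cre and 124 ± 109 (SD, n = 4) in WT. All TCRKO libraries thus lay above all WT, CD4KO and CD8KO libraries, and all Tie2Cre_H2Abf libraries lay above all Tie2Cre libraries. Counts behind these values ran from 81 in WT_9771 to 6489 in CD8KO_9752.

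For Apln the estimated log2 difference was 2.22 ± 0.46 (SE) for TCRKO against WT (edgeR adjusted p = 0.104). Without WT_9772 it was 3.08, with an adjusted p of 0.00324. In this edgeR setting that WT library decides on which side of the threshold Apln falls. With WT_9772 kept, Apln passed in some other settings, which are given in the last section. Without the satellite-rich libraries the estimate was 2.09 and the edgeR adjusted p 0.0539. The difference between Tie2Cre_H2Abf and Tie2Cre was 1.80 ± 0.49 (edgeR adjusted p = 0.576), or 1.44 without the satellite-rich libraries (adjusted p = 0.867). TCRKO against CD4KO gave 1.74 ± 0.50 (edgeR adjusted p = 0.525), and TCRKO against CD8KO 0.72 ± 0.49 (adjusted p = 0.943). CD8KO against WT gave 1.50 ± 0.46 (edgeR adjusted p = 0.465) and 2.39 without WT_9772. CD4KO against WT gave 0.48 ± 0.46 (edgeR adjusted p = 0.813) and Tie2Cre against WT 0.45 ± 0.46 (adjusted p = 0.913). Their values without WT_9772 were 1.33 and 1.31.

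Across the whole series, the 10 deficient libraries had a mean Apln level of 463 ± 224 CPM (SD) and the 10 competent ones 206 ± 137 CPM (SD). The groups overlapped, with CD4KO low and CD8KO high. With libraries taken as replicates whatever their background, the log2 difference was 1.17 ± 0.37 (edgeR adjusted p = 0.381), and 0.95 without the satellite-rich libraries. The library numbers fall into a 95 series (Tie2Cre and Tie2Cre_H2Abf) and a 97 series (the rest), which no source calls a batch. Within the 97 series the difference was 0.76 ± 0.48, within the 95 series 1.76 ± 0.39, and with the series as a covariate 1.11 ± 0.38. Since the 95 series holds only Tie2Cre and Tie2Cre_H2Abf, its value is the comparison of these backgrounds again, fitted on their libraries alone. In the edgeR test of any difference among the 6 backgrounds, Apln had an adjusted p of 0.0655, and of 0.0370 without the satellite-rich libraries. With CD8KO_9752 left out as well, the adjusted p was 0.0970.

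On the scale of TPM (a transcript share that corrects for length), Apln read 259.7, 215 and 221 in TCRKO and 183, 168, 199 and 222 in Tie2Cre_H2Abf. The competent libraries ranged from 9.50 TPM in WT_9771 to 498 TPM in CD8KO_9752, with 33.3, 17.9 and 146 TPM in the other WT libraries and 43.3, 71.4 and 142 TPM in Tie2Cre. CD4KO read 58.3, 91.0 and 151 TPM. TPM is a share of all transcripts, abundant RNA included: CD8KO_9752, with the smallest share of abundant RNA, had the highest TPM of all 20 libraries for all 9 genes, and WT_9771 the lowest for 8 of them.

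Aplnr encodes the G protein-coupled receptor of apelin (chromosome 2, 85136225 to 85139923, plus strand). It read 380, 421, 231 and 459 CPM in WT_9748, WT_9749, WT_9771 and WT_9772. The CD8KO libraries read 878, 440 and 576 CPM, Tie2Cre 573, 1123 and 399 CPM, and CD4KO 237, 701 and 656 CPM. TCRKO read 229.8, 262 and 133 CPM, a mean of 208 ± 67.4 (SD, n = 3). All TCRKO libraries lay below all CD8KO libraries, as their endothelial marker sums did, and below all WT libraries once WT_9771 was left out. Tie2Cre_H2Abf, at 359, 416, 432 and 289.8 CPM, overlapped Tie2Cre only through Tie2Cre_9504, which stood at 399 CPM. Counts ran from 282 to 10314.

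TCRKO against CD8KO gave a log2 difference for Aplnr of -1.60 ± 0.44 (edgeR adjusted p = 0.843), and TCRKO against CD4KO -1.35 ± 0.44 (edgeR adjusted p = 0.680). For TCRKO against WT it was -0.84 ± 0.41 (edgeR adjusted p = 0.577). Tie2Cre_H2Abf against Tie2Cre gave -0.90 ± 0.40 (edgeR adjusted p = 0.576), which came to -0.35 without Tie2Cre_9502, the highest Aplnr library. Deficient against competent hosts gave -0.56 ± 0.28 (edgeR adjusted p = 0.707), with means of 371 ± 185 and 548 ± 264 CPM (SD, n = 10 each). Tie2Cre against WT gave 0.91 ± 0.40 (edgeR adjusted p = 0.716), or 0.37 without Tie2Cre_9502. Aplnr was the only one of the 9 genes with a negative estimate in Tie2Cre_H2Abf against Tie2Cre and, with all libraries kept, in deficient against competent hosts, where Esm1 turned negative without the satellite-rich libraries (-0.15) and Esm1, Unc5b, Adm and Mcam within the 97 series (-0.24, -0.23, -0.14 and -0.061).

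Ligand and receptor counts were then set against each other within each library, which needs no scaling between libraries. The ratio of Apln to Aplnr counts was 2.51, 2.39 and 4.03 in TCRKO and 1.92, 1.19, 0.963 and 2.67 in Tie2Cre_H2Abf. In WT it was 0.180, 0.175, 0.287 and 0.628, in CD8KO 0.348, 0.629 and 0.819, and in Tie2Cre 0.148, 0.145 and 0.656. CD4KO had ratios of 0.494, 0.261 and 0.336. The 7 libraries of TCRKO and Tie2Cre_H2Abf therefore spanned 0.963 to 4.03 and the other 13 spanned 0.145 to 0.819, with no overlap, and neither satellite-rich library was at the edge between them. Per length the ratios of TPM spanned 1.15 to 4.79 and 0.174 to 0.976. This ratio was formed after the values had been seen and joins 2 backgrounds for their values, so it carries no test. CD4KO, the third deficient background, lay with the competent ones.

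**Figure D2:**
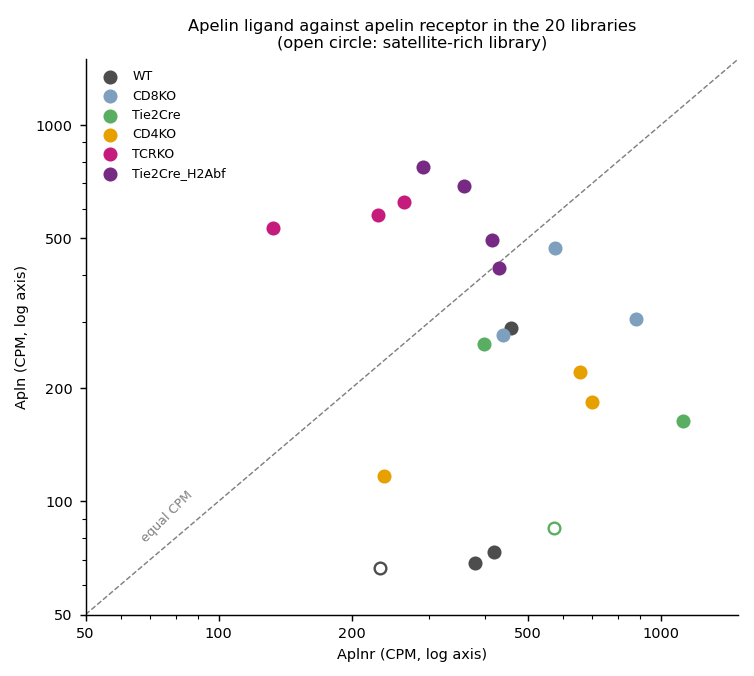
Apln against Aplnr in CPM (log axes) in the 20 libraries, coloured by host background; the dashed line marks equal values and open circles are the satellite-rich libraries. The 3 TCRKO libraries lie above the line, 3 of the 4 Tie2Cre_H2Abf libraries lie above it and the remaining one just below it (count ratio 0.963), and the other 13 libraries lie farther below it.

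Setting the genes against Pecam1 in the same library gave another view that does not rest on scaling. Apln reached 0.699 to 1.00 counts per Pecam1 count in TCRKO and 0.367 to 0.659 in Tie2Cre_H2Abf. It reached 0.0596 to 0.239 in WT, 0.119 to 0.298 in Tie2Cre, 0.171 to 0.226 in CD4KO and 0.241 to 0.467 in CD8KO. Aplnr per Pecam1 count was 0.248 to 0.347 in TCRKO and 0.330 to 0.532 in WT, ranges that meet. It was 0.415 to 0.692 in CD8KO and 0.388 to 0.864 in CD4KO, both above all TCRKO libraries. In Tie2Cre it was 0.454 to 0.816 and in Tie2Cre_H2Abf 0.213 to 0.457, ranges that meet. The 12 endothelial markers, Pecam1 among them, summed to 2721, 3837 and 3838 CPM in TCRKO, against 4886 to 6104 CPM in WT without WT_9771, which held 2460. CD8KO held 5106 to 6287 CPM, above all TCRKO libraries, and 11 of the 12 estimates were negative in TCRKO against CD8KO (median -0.60 where all genes had 0.0632). In Tie2Cre_H2Abf the markers summed to 5143 to 7496 CPM and in Tie2Cre to 3529 to 6414 CPM, with 11 of 12 estimates positive (median 0.34 where all genes had -0.24). The part of these sums in the values of the 9 genes was not tested.

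Adm encodes adrenomedullin, a secreted peptide that acts on Calcrl paired with Ramp2 or Ramp3 and keeps endothelial barriers tight. It lies on chromosome 7 at 110627661 to 110629820, plus strand, and was among the 2 scarcest of the 9 genes. WT read 0.828, 7.43, 9.85 and 9.65 CPM, CD8KO 2.31, 10.3 and 7.43 CPM, and TCRKO 12.1, 14.6 and 4.55 CPM. Tie2Cre read 0, 2.19 and 1.39 CPM, from 0, 18 and 11 counts, where the 0 allows up to 1.13 CPM. CD4KO read 0, 5.25 and 0.592 CPM, from 0, 41 and 8 counts, where the 0 allows up to 0.655 CPM. Tie2Cre_H2Abf read 8.50, 5.59, 6.05 and 12.2 CPM, above all 3 Tie2Cre libraries. The log2 difference there was 2.64 ± 1.13 (edgeR adjusted p = 0.576). TCRKO against CD4KO gave 2.40 ± 1.15 (edgeR adjusted p = 0.749), and 4.83 without CD4KO_9769, whose 41 counts are most of that group's. Tie2Cre against WT gave -2.40 ± 1.13 (edgeR adjusted p = 0.721), and -1.69 without the satellite-rich libraries, a comparison in which background and number series cannot be told apart.

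Cxcr4 encodes the receptor of the chemokine Cxcl12, which tip cells use in sprouting and leukocytes in homing (chromosome 1, 128588199 to 128592293, minus strand). WT read 96.0, 221, 14.8 and 164 CPM, with the satellite-rich WT_9771 far below the rest. CD8KO read 141, 84.7 and 255 CPM, Tie2Cre 27.96, 66.5 and 98.1 CPM, and CD4KO 9.83, 87.0 and 61.7 CPM. TCRKO read 292, 259 and 254 CPM and Tie2Cre_H2Abf 132, 339, 331 and 195 CPM. All TCRKO libraries lay above all WT and CD4KO libraries, and all Tie2Cre_H2Abf libraries above all Tie2Cre libraries. CD8KO reached 255 CPM and so overlapped TCRKO.

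The mean of Cxcr4 was 268 ± 20.4 CPM in TCRKO (SD, n = 3), 52.9 ± 39.3 in CD4KO (SD, n = 3) and 124 ± 89.0 in WT (SD, n = 4), or 160.3 ± 62.7 in WT without WT_9771. TCRKO against CD4KO gave a log2 difference of 2.34 ± 0.71 (edgeR adjusted p = 0.582), and 2.44 without the satellite-rich libraries (adjusted p = 0.0853). Tie2Cre_H2Abf against Tie2Cre gave 1.95 ± 0.68 (edgeR adjusted p = 0.576) and TCRKO against WT 1.11 ± 0.63 (adjusted p = 0.605). CD4KO against WT gave -1.23 ± 0.66 (edgeR adjusted p = 0.597), and here the 2 groups did not overlap once WT_9771 was left out. Deficient against competent hosts gave 0.74 ± 0.45 (edgeR adjusted p = 0.787), and CD4KO and TCRKO had the lowest and the highest group mean within the deficient class.

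Igfbp3 encodes a secreted protein that binds insulin-like growth factors (chromosome 11, 7206086 to 7213923, minus strand). It read 28.1, 61.8, 13.1 and 53.0 CPM in WT, 36.8, 47.4 and 72.7 CPM in CD8KO, and 7.18, 18.4 and 38.9 CPM in Tie2Cre. CD4KO read 50.7, 32.9 and 16.4 CPM. TCRKO read 72.4, 83.9 and 84.6 CPM and Tie2Cre_H2Abf 84.8, 76.9, 59.4 and 70.6 CPM. TCRKO thus lay above WT and CD4KO without overlap, and Tie2Cre_H2Abf above Tie2Cre. Outside Tie2Cre_H2Abf, 1 library (CD8KO_9753, 72.7 CPM) reached the TCRKO range. The log2 difference was 1.75 ± 0.55 for Tie2Cre_H2Abf against Tie2Cre (edgeR adjusted p = 0.576), 1.27 ± 0.56 for TCRKO against CD4KO (adjusted p = 0.749) and 1.03 ± 0.52 for TCRKO against WT (adjusted p = 0.579). Deficient against competent hosts gave 0.74 ± 0.34 (edgeR adjusted p = 0.661), and 0.34 ± 0.41 within the 97 series.

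Counted over the 9 genes, 3 (Apln, Cxcr4, Igfbp3) had all TCRKO libraries above all WT libraries, where 5.57% of all genes did so upward and 2.1% downward. Without the satellite-rich libraries these 3 were joined by Aplnr in the lower direction; 8.68% of all genes then separated upward and 5.3% downward. The same 3 genes separated upward in TCRKO against CD4KO (6.11% of all genes upward, 5.61% downward), and 5 genes (Apln, Cxcr4, Igfbp3, Adm, Unc5b) in Tie2Cre_H2Abf against Tie2Cre (5.28% of all genes upward, 3.76% downward). The same 5 separated without Tie2Cre_9501, where 9.13% of all genes did so upward and 7.61% downward. TCRKO against CD8KO separated Apln upward (5.17%) and Aplnr and Plvap downward (6.74%). With all libraries kept, the groups of all 9 genes overlapped in deficient against competent hosts (0% of all genes separated in either direction), in CD8KO against WT (3.69% upward, 1.47% downward), in CD4KO against WT (2.73% upward, 1.19% downward) and in Tie2Cre against WT (2.86% upward, 1.34% downward). The exception was Cxcr4, lower in CD4KO than in WT without WT_9771, where 2.83% of all genes were lower and 5.02% higher without overlap.

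**Figure D3:**
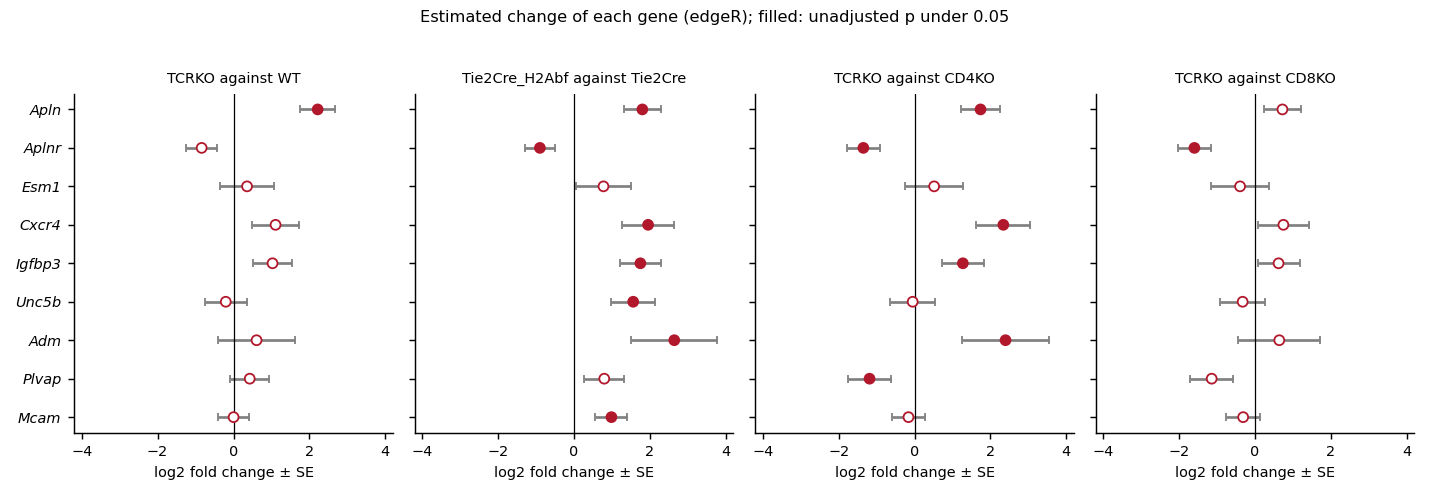
Estimated log2 difference of each of the 9 genes with its standard error (edgeR) in 4 comparisons; filled points have an unadjusted p under 0.05, and no point passed the adjusted threshold. Tie2Cre_H2Abf against Tie2Cre has 8 positive estimates and a negative one, that of Aplnr (the 12 endothelial markers have 11 positive), while TCRKO against WT, CD4KO or CD8KO has genes on both sides of 0.

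Esm1 encodes endocan, a proteoglycan that VEGF induces and a classic tip cell marker (chromosome 13, 113209659 to 113218098, plus strand). It was scarce, with 3 to 550 counts per library. WT read 13.2, 9.56, 2.46 and 3.98 CPM, TCRKO 11.6, 13.2 and 3.86 CPM, and Tie2Cre_H2Abf 11.5, 7.11, 11.4 and 10.6 CPM. CD8KO read 7.50, 23.5 and 6.73 CPM, Tie2Cre 2.65, 7.07 and 7.81 CPM, and CD4KO 10.7, 3.20 and 6.29 CPM. The groups overlapped in all comparisons, and the edgeR test gave unadjusted p-values from 0.297 to 0.885. The means were 8.94 ± 3.53 CPM in deficient and 8.45 ± 6.20 CPM in competent libraries (SD, n = 10 each).

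Unc5b encodes a netrin receptor that tip cells carry as a guidance cue receptor (chromosome 10, 60762593 to 60831581, minus strand). It read 205, 44.2, 22.2 and 71.2 CPM in WT, with WT_9748 far above the rest, and 119, 78.6 and 84.3 CPM in CD8KO. Tie2Cre read 30.6, 61.5 and 40.1 CPM and Tie2Cre_H2Abf 123, 107, 134 and 157 CPM, with no overlap between them. The log2 difference was 1.56 ± 0.58 (edgeR adjusted p = 0.576), and 1.33 without the satellite-rich libraries. CD4KO read 27.7, 54.8 and 149 CPM and TCRKO 89.1, 86.7 and 48.2 CPM, so TCRKO lay inside the ranges of WT and CD4KO.

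Plvap encodes the protein of the diaphragms that close fenestrae and caveolae, a marker of immature and leaky vessels (chromosome 8, 71497765 to 71511752, minus strand). WT read 197, 126, 124 and 655 CPM, with WT_9772 again apart, and TCRKO 413, 523 and 176 CPM. CD8KO read 1033, 653 and 774 CPM, Tie2Cre 461, 1125 and 521 CPM, and CD4KO 402, 672 and 1458 CPM. Tie2Cre_H2Abf read 1130.3, 792, 1301 and 1658 CPM. Plvap was thus lower in all TCRKO libraries than in all CD8KO libraries, as the endothelial marker sums were, and per Pecam1 count the 2 groups overlapped (0.330 to 0.692 in TCRKO and 0.616 to 0.814 in CD8KO). Tie2Cre_H2Abf and Tie2Cre overlapped in CPM (log2 difference 0.80 ± 0.53, edgeR adjusted p = 0.682). Per Pecam1 count they did not, at 0.872 to 1.22 in Tie2Cre_H2Abf and 0.593 to 0.817 in Tie2Cre. Against WT the log2 difference was 1.61 ± 0.52 for CD4KO (edgeR adjusted p = 0.573), 1.57 ± 0.52 for CD8KO (adjusted p = 0.465) and 1.35 ± 0.52 for Tie2Cre (adjusted p = 0.664). These 3 values rest on the same 4 WT libraries, and without WT_9772 they were 2.51, 2.50 and 2.25. Without CD4KO_9770 the first was 0.97, and without Tie2Cre_9502 the last was 0.82. TCRKO against CD4KO gave -1.19 ± 0.56 (edgeR adjusted p = 0.749), and -0.53 without CD4KO_9770, the highest CD4KO library.

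Mcam (CD146) encodes an adhesion molecule of endothelial and mural cells (chromosome 9, 44134469 to 44142727, plus strand). Its levels overlapped between the groups of all 8 pairwise comparisons. WT read 473, 409, 165 and 298 CPM, CD8KO 557, 234 and 466 CPM, and CD4KO 251, 375 and 504 CPM. TCRKO read 325, 428 and 258 CPM and Tie2Cre 136, 453 and 273 CPM. Tie2Cre_H2Abf read 618, 443, 472 and 743 CPM, of which only the lowest was under the top of Tie2Cre. The log2 difference between these 2 was 0.99 ± 0.42 (edgeR adjusted p = 0.576), and 0.63 without the satellite-rich libraries.

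Levels were compared between genes per length, in TPM. Plvap was the most abundant, with a median of 458 TPM over the 20 libraries, and stood above the next gene in 18 of them. Mcam (median 180.3 TPM), Aplnr (162), Apln (149) and Cxcr4 (122) followed, but each stood above its next neighbour in only 12 or 13 of 20 libraries, except Cxcr4, which stood above Igfbp3 in 19. Igfbp3 had a median of 29.7 TPM and Unc5b 16.1 TPM, in this order in 15 of 20 libraries. Adm (5.06 TPM) and Esm1 (4.91 TPM) stood lowest, and Adm was above Esm1 in 11 of 20 libraries, so their order was not set. Apln held ranks from 1 to 6 among the 9 genes across libraries, and Plvap ranks from 1 to 4.

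**Figure D4:**
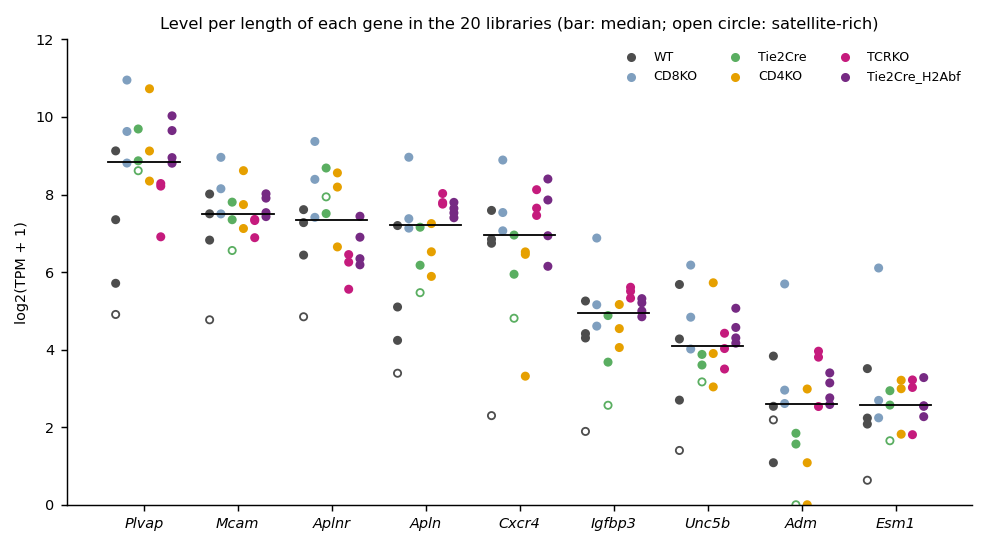
Level per length, as log2(TPM + 1), of each gene in the 20 libraries, ordered by the median (bar) and coloured by host background; open circles are the satellite-rich libraries. Medians fall from 458 TPM for Plvap to 4.91 TPM for Esm1, and the point clouds of Mcam, Aplnr, Apln and Cxcr4 overlap.

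How the 9 genes varied together was described by Pearson correlations of log2 CPM over the 20 libraries, which share depth, satellite content and the TMM scaling. Of 36 pairs, 15 had r above 0.5 and 5 had r below 0, and within backgrounds 10 pairs had r above 0.5. Unc5b and Mcam were closest (r = 0.81, or 0.72 without the satellite-rich libraries). Apln correlated with Igfbp3 at 0.72 (0.61 without them) and with Cxcr4 at 0.69 (0.56 without them). Apln and Aplnr had r = -0.21, and Aplnr and Igfbp3 -0.43 (-0.68 without the satellite-rich libraries). Within backgrounds Apln and Aplnr had r = 0.21 and Aplnr and Igfbp3 -0.11.

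The genes most like 4 of the members were read among 4201 genes with a mean of at least 10 CPM, over the same 20 libraries. Apln was closest to Gapdh, an enzyme of glycolysis (r = 0.91, Spearman 0.92, or r = 0.89 without the satellite-rich libraries), then to Csnk2b (0.88), Endod1 (0.88), Csrp1 (0.87) and the small heat shock protein Hspb8 (0.86). Cxcr4 was closest to Zscan26 0.93 (0.89 without the satellite-rich libraries), the endothelin receptor Ednrb 0.89 (0.87), Mest 0.85 (0.81), Cd81 0.85 (0.78) and Pigt 0.83 (0.75). Spearman's rho for Cxcr4 ran from 0.54 (Pigt) to 0.83 (Zscan26). Adm was closest to Copz1 0.85 (0.78 without the satellite-rich libraries), Eif6 0.83 (0.78), Kcne3 0.83 (0.77), Cd9 0.80 (0.84) and Cd276 0.78 (0.72). For Adm rho ran from 0.57 (Kcne3) to 0.76 (Eif6). For Esm1 the closest genes were Carm1 0.83 (0.72 without the satellite-rich libraries), Pa2g4 0.80 (0.71), Mapk11 0.79 (0.66), Smarca4 0.77 (0.63) and Zyx 0.76 (0.63). Here rho ran from 0.58 (Mapk11) to 0.77 (Pa2g4).

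A list of 30 other tip cell genes was read beside the members. In edgeR, 0 of the 30 passed the adjusted threshold in the 8 comparisons. Per comparison 0 to 11 had an unadjusted p under 0.05, where 4.72% to 10.5% of all genes did. DESeq2 passed Ece1 in TCRKO against WT and Dll4 and Trp53i11 in Tie2Cre_H2Abf against Tie2Cre, and limma-voom passed 0. In Tie2Cre_H2Abf against Tie2Cre 26 estimates were positive, with a median of 0.82 where all genes had -0.24. Here 11 genes had an unadjusted p under 0.05 (8.54% of all genes did). Without the satellite-rich libraries 24 of 30 were positive, with a median of 0.51 where all genes had 0. The share of all genes with such a p was not counted in that fit, so its number of such list genes is not given. The members had a median of 1.56 in the same comparison with all libraries kept. Trp53i11 (log2 difference 1.64 ± 0.43), Dll4 (1.57 ± 0.42), Pgf (2.30 ± 0.68) and Nid2 (1.29 ± 0.47) had the smallest p, all at an edgeR adjusted p of 0.576. Dll4, the Notch ligand of tip cells, read 192, 253, 255 and 292 CPM in Tie2Cre_H2Abf and 71.4, 92.6 and 86.9 CPM in Tie2Cre, while WT held 53.3 to 247 CPM. In TCRKO against WT the list was split, with 14 positive and 16 negative estimates and a median of -0.18 against -0.20 over all genes. Here 2 genes had an unadjusted p under 0.05 (8.65% of all genes did). For the fit without the satellite-rich libraries this share was not counted, so no such number is given. The 2 genes were Ece1, the protease that makes endothelin (-0.93 ± 0.35, edgeR adjusted p = 0.536), and the VEGF family ligand Pgf (1.63 ± 0.62, adjusted p = 0.536). Pgf read 61.5, 80.2 and 62.7 CPM in TCRKO and 9.85 to 32.3 CPM in WT. In deficient against competent hosts 26 of 30 estimates were positive, with a median of 0.23 against -0.11 over all genes. Here 1 gene, Pgf, had an unadjusted p under 0.05 (7.27% of all genes did).

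Ligands, receptors and partners of the 9 genes formed a list of 27, of which 25 were tested and 0 passed in edgeR in the 8 comparisons. Per comparison 1 to 4 had an unadjusted p under 0.05, where 4.72% to 10.5% of all genes did. DESeq2 passed Cxcl12 in TCRKO against CD4KO, Ece1 and Gna13 in TCRKO against WT, Gna13 in CD8KO against WT and Pdgfrb in Tie2Cre against WT, and limma-voom passed 0. Of all genes DESeq2 passed 0.545% in CD8KO against WT and 0.511% in Tie2Cre against WT. Pdgfrb was scarce, with a median of 0.482 CPM, 0 CPM in 5 libraries and a highest value of 48.0 CPM. DESeq2 was not run without the satellite-rich libraries, so the part of Tie2Cre_9501 and WT_9771 in that call was not tested. Cxcl12, the ligand of Cxcr4, read 79.2, 50.0 and 37.7 CPM in TCRKO and 209, 314 and 230.1 CPM in CD4KO. Its log2 difference was -2.17 ± 0.59 (edgeR adjusted p = 0.426), opposite in sign to that of Cxcr4 in the same libraries. Ackr3, a scavenger receptor of Cxcl12, gave 1.47 ± 0.58 in this comparison (edgeR adjusted p = 0.749). In Tie2Cre_H2Abf Cxcl12 read 237, 45.6, 54.1 and 208 CPM, from below the lowest Tie2Cre library (93.0 CPM) to inside the Tie2Cre range. Ramp3, a partner of the Adm receptor, read 13.5 to 58.0 CPM in Tie2Cre_H2Abf and 5.29 to 18.9 CPM in Tie2Cre (1.59 ± 0.76, edgeR adjusted p = 0.576).

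Stalk and quiescence genes formed a list of 17, with 16 tested, and 0 passed in edgeR in the 8 comparisons. Per comparison 0 to 3 had an unadjusted p under 0.05, where 4.72% to 10.5% of all genes did. DESeq2 passed Vwf in TCRKO against WT and against CD4KO, limma-voom passed 0, and edgeR passed Vwf in TCRKO against WT without the satellite-rich libraries (0.102% of all genes). In TCRKO against WT 12 of 16 estimates were negative, with a median of -0.35 against -0.20 over all genes. Vwf, von Willebrand factor, read 132, 134 and 89.6 CPM in TCRKO against 175 to 1048 CPM in WT (-2.005 ± 0.50, edgeR adjusted p = 0.233). In Tie2Cre_H2Abf against Tie2Cre 13 of 16 were positive (median 0.61, or 0.27 without the satellite-rich libraries), so most estimates of the stalk and of the tip cell list were positive there. Hypoxia genes formed a list of 19, with 18 tested and 0 passed in edgeR in the 8 comparisons. Of these, 1 to 4 per comparison had an unadjusted p under 0.05 (4.72% to 10.5% of all genes did). DESeq2 passed Vegfa in TCRKO against WT, and limma-voom passed 0. Vegfa was scarce, with a median of 0.674 CPM, 0 CPM in 5 libraries and a highest value of 17.05 CPM. The medians of the hypoxia list were 0.38 in Tie2Cre_H2Abf against Tie2Cre (14 of 18 positive) and 0.12 in TCRKO against WT (11 of 18 positive). All genes had -0.24 and -0.20 there. The 19 hypoxia genes summed to 689 to 798 CPM in TCRKO, below the 825 to 1093 CPM of WT without WT_9771, which held 572. They summed to 823 to 1094 CPM in Tie2Cre_H2Abf and 505 to 925 CPM in Tie2Cre. Pfkfb3, a regulator of glycolysis, read 221, 67.7, 87.7 and 142 CPM in Tie2Cre_H2Abf and 32.9, 36.6 and 40.3 CPM in Tie2Cre (1.83 ± 0.50, edgeR adjusted p = 0.576). In TCRKO it read 55.3, 31.0 and 19.8 CPM, inside the WT range of 30.8 to 111 CPM but for its lowest library. Pgk1, an enzyme of glycolysis, gave 1.45 ± 0.51 in TCRKO against WT (edgeR adjusted p = 0.506).

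Markers of other cells were read because CD31 sorts can carry them and because Mcam is shared with mural cells and Cxcr4 with leukocytes. The 11 mural markers summed to 31.1 to 40.9 CPM in TCRKO, 34.1 to 75.6 in WT, 35.6 to 103 in Tie2Cre_H2Abf and 54.8 to 93.0 in Tie2Cre. Higd1b was at 0 in 16 of 20 libraries and Myh11 in 11, while Abcc9 (median 25.4 CPM) and Rgs5 (median 3.56 CPM) were at 0 in none. The 10 macrophage markers summed to 266 to 673 CPM in TCRKO, 448 to 570 in CD4KO, 233 to 684 in WT, 187 to 292 in Tie2Cre and 83.3 to 549 in Tie2Cre_H2Abf. The 10 lymphocyte markers summed to 0 to 33.0 CPM outside CD8KO, with Cd3d at 0 in 18 of 20 libraries and Cd4 in 4. The 7 tumour epithelial markers summed to at most 15.4 CPM, and Epcam was at 0 in 19 of 20 libraries and Krt8 in 9. The 9 fibroblast markers summed to 0.425 to 69.2 CPM, with Col1a1 at 0 in 10 libraries. Mmp2 (median 7.79 CPM) and Thy1 (median 3.59 CPM) were at 0 in 1 library each. The 5 platelet markers summed to at most 16.8 CPM. The 6 lymphatic endothelial markers summed to 79.5 to 111 CPM in TCRKO, 45.1 to 159 in WT, 62.0 to 102 in Tie2Cre and 154 to 215 in Tie2Cre_H2Abf. Prox1 was at 0 in 2 of 20 libraries, and Flt4 had a median of 120.1 CPM where the next, Lyve1, had 8.11. The lymphatic sums of Tie2Cre_H2Abf and Tie2Cre did not overlap, while 3 of the 6 estimates were positive and 3 negative (median -0.079 where all genes had -0.24). The part of these markers in the values of the 9 genes was not tested.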

How the data were processed

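The libraries were made from total RNA by MATQ amplification and a Nextera XT kit, per the labels' protocols, a method that does not mark strand, so a gene's reads and those antisense to it are counted as one. Per the submitters' processing notes, reads were demultiplexed with bcl2fastq 2.17 and processed with STAR, RSEM 1.2.28 and DESeq2 on GRCm38; the STAR version and the annotation release are not given in the sources used here. The deposited files give, per gene and library, RSEM expected counts (estimated counts of reads) and TPM that the authors computed, and the posterior SD of the expected count was 0 for all 9 genes. Of the deposited expected counts 4.45% were not whole, and these were rounded. Symbols and positions came from GENCODE (GRCm38), which matched 46488 of 46983 IDs.

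Groups were taken from the sample titles. Counts were tested with edgeR 4.0.16 in R 4.3.3: TMM scaling, filterByExpr, 1 quasi-likelihood fit over all 6 backgrounds (or over CD4 status), and Benjamini-Hochberg adjustment over 14875 genes at 0.05. The steps were tested on simulated data. The biological coefficient of variation was 0.995 in the model of 6 backgrounds. Levels are CPM by TMM library sizes, and log2 CPM used a prior count of 2. Amplified reads without molecular identifiers are not independent molecules. Alternatives were RLE factors, no filter or 5 CPM in 10 libraries, DESeq2 1.42.0, limma-voom and limma 3.58.1 on log2(TPM + 1) for genes with a mean of at least 0.5, removal of abundant RNA, the groups compared alone, the number series, and libraries left out. Without WT_9771, Tie2Cre_9501 and CD8KO_9752 together was chosen after seeing the data. The members and lists were chosen with earlier results of these data known. Besides the 9 members, the text names from each list genes past the threshold and the 4 with a mean of at least 1 CPM and the smallest p in a comparison, defining markers of other cells, and the 5 genes most correlated with Apln, Esm1, Adm or Cxcr4 among those with a mean of at least 10 CPM.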

Additional observations from a re-analysis of the deposited data

Results flagged for a closer look

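In 36 groups of 4 or 10 libraries (each of the 9 genes in WT, Tie2Cre_H2Abf, and all competent and all deficient libraries), the gap between the most extreme library and its neighbour was set against the range of the group. For normal values from a single population this test marks about 1 group in 20 by chance. Here the groups of 10 mix backgrounds and contain the groups of 4, so that rate need not hold. The test marked 4 of 36. Apln in WT_9772 stood at 288.1 CPM where the next WT library had 73.5, a gap of 0.968 of the range. Plvap in the same WT_9772 stood at 655 CPM, next to 197, a gap of 0.863 of the range. Unc5b in WT_9748 stood at 205 CPM among the 10 competent libraries, next to 119, a gap of 0.472 of the range. Esm1 in CD8KO_9752 stood at 23.5 CPM among the same 10, next to 13.2, a gap of 0.487 of the range.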

How the results depend on the processing

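Where edgeR as described passed 0 of the 9 genes, Apln alone (1 gene) passed in TCRKO against WT with RLE factors (log2 difference 2.15, adjusted p = 0.0387), with no filter (2.34, adjusted p = 0.00282), with the filter of 5 CPM (adjusted p = 0.0139), with DESeq2 (2.15, adjusted p = 0.000324) and with limma-voom (2.51, adjusted p = 0.0160). Of all genes 0.0605%, 0.093%, 0.26%, 1.16% and 0.0269% passed there in these 5 settings. With the 2 groups alone its edgeR adjusted p was 0.557, and with abundant RNA and satellite-like genes removed 0.101. Without the satellite-rich libraries it was 0.0539, and without these and CD8KO_9752 0.104. On log2(TPM + 1) the limma adjusted p was 0.198. DESeq2 passed 1 gene in Tie2Cre_H2Abf against Tie2Cre (Apln), 3 in TCRKO against CD4KO (Apln, Aplnr, Cxcr4) and 1 in TCRKO against CD8KO (Aplnr), where limma-voom also passed 1 (Aplnr). In the test of any difference, Apln alone passed with RLE factors (0.0672% of all genes did), with the filter of 5 CPM (0.468%) and without the satellite-rich libraries (0.142%). With no filter 3 genes passed (Apln, Cxcr4, Plvap, 2.02% of all genes). DESeq2 passed 4 (Apln, Aplnr, Cxcr4, Plvap, 1.75%) and limma-voom 2 (Apln, Plvap, 0.41%). With CD8KO_9752 left out as well as the satellite-rich libraries, Apln had an edgeR adjusted p of 0.0970 in that test. The cause of these changes was not tested. With 1 library left out at a time, the number passing ranged from 0 to 1 in TCRKO against WT (1 without WT_9772) and from 0 to 1 in the test of any difference (1 without CD4KO_9770, Tie2Cre_9504 or WT_9772), and was 0 in the other comparisons. Of 72 estimates, 25 changed sign in at least 1 setting, and 0 of the 23 with an unadjusted p under 0.05 did. On log2(TPM + 1) the sign turned for 12 estimates: in Tie2Cre against WT Unc5b (0.036), Cxcr4 (0.0339), Esm1 (0.27) and Mcam (0.46), in CD4KO against WT Igfbp3 (0.62), Unc5b (0.71) and Esm1 (0.56), in TCRKO against CD8KO Cxcr4 (-0.0850), Igfbp3 (-0.0657) and Adm (-0.32), in TCRKO against WT Unc5b (0.47), and in CD8KO against WT Adm (1.34). The other settings, apart from those that leave out 1 library, turned 29 values. With 1 library left out, Igfbp3 in CD4KO against WT ranged from -0.66 to 0.0810, Cxcr4 in CD8KO against WT from -0.13 to 0.79, and Apln in Tie2Cre against WT from -0.0020 to 1.31. No paired analysis was possible because the groups share no replicate numbers. Depth limits Adm and Esm1 most, with 0 to 241 and 3 to 550 counts per library.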
